A study of Mus musculus with 15 samples.

Results

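The genes described here are 8 genes of natriuretic peptide and cyclic GMP signaling, chosen by symbol from the 24982 genes counted in each library: the peptide gene Nppc, the receptor genes Npr1, Npr2 and Npr3, the kinase gene Prkg1 and the phosphodiesterase genes Pde5a, Pde3a and Pde1a. RNA was sequenced from whole aortas of 15 male wild-type C57BL/6 mice, 10 months old, in 3 groups of 5. Control mice had a sham operation, orchiectomized mice lost their testes, and the orchiectomized + DHT mice also received a pellet of dihydrotestosterone (DHT), the androgen with the highest affinity for the androgen receptor. After 2 weeks of recovery every group received Aldo-salt for 7 days, that is aldosterone from a minipump at 200 µg/kg/d and drinking water with 0.9% NaCl and 0.2% KCl, so no group without Aldo-salt was compared here. The comparisons ask how the aortic level of these mRNAs under Aldo-salt depended on the testes and on DHT.

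Natriuretic peptides relax blood vessels through the second messenger cyclic GMP. Atrial and B-type peptide (Nppa, Nppb) act on the receptor encoded by Npr1 and C-type peptide (Nppc) on the one encoded by Npr2, and both receptors carry a guanylyl cyclase that makes cyclic GMP. The receptor encoded by Npr3 has no cyclase domain and mainly takes the peptides up and clears them. Nitric oxide reaches the same messenger through soluble guanylyl cyclase. In smooth muscle, cyclic GMP activates the kinase encoded by Prkg1, and the phosphodiesterases end or redirect the signal: the Pde5a enzyme is specific for cyclic GMP, the Pde3a enzyme degrades cyclic AMP and is inhibited by cyclic GMP, and the Pde1a enzyme is switched on by calcium and calmodulin.

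The libraries held 8268957 to 13816864 reads on genes. Levels are given as CPM, read counts scaled to a common library size by TMM, and the 3 groups were fitted together with edgeR. A difference was called at an unadjusted P value under 0.01, the threshold used in the study, and the P values printed are those adjusted over all 14121 genes tested, so a called gene can have a large printed value. Nppc was under the filter on low counts, and the other 7 genes were tested. Smooth muscle, the main cell type of the aortic wall, was well represented, with 24338 to 84517 reads on Myh11 per library and 41631 to 81108 on Acta2. One aorta, orchiectomized replicate 2, stood apart from the rest. Its 7 smooth muscle markers summed to 10345 CPM, the lowest of all libraries (14106 to 24548 CPM in the others), and its 7 cardiac muscle markers to 5844 CPM, the highest (91.5 to 1425 CPM in the others). In whole aortas, fewer cells of a type and less RNA per cell cannot be told apart.

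Among the 7 tested genes, 1 passed the threshold between orchiectomized and control mice: Npr3, the clearance receptor, was lower after orchiectomy. Of all genes tested, 3.22% were called in that comparison, 1.13% lower and 2.08% higher. Between orchiectomized + DHT and orchiectomized mice 0 of 7 were called (9.72% of all genes, 2.46% higher and 7.27% lower), and between orchiectomized + DHT and control mice 0 of 7 (3.53% of all genes, 1.52% higher and 2.01% lower). At an unadjusted P value under 0.05 the counts were 1, 2 and 1 of 7 (12%, 21.2% and 11.8% of all genes), and at an adjusted P value under 0.05 they were 0, 0 and 0 (0%, 4.72% and 0.262% of all genes). A single test for any difference among the 3 groups called 0 of 7 (7.34% of all genes), with Npr3 the nearest to the threshold (adjusted P = 0.140). DESeq2 called 1 of the 7 in the first comparison, 2 in the second and 0 in the third (4.46%, 12.3% and 4.95% of the 13910 genes it tested). The median log2 fold change of the 7 genes was 0.011, 0.17 and 0.19 in the 3 comparisons, beside 0.037, -0.022 and -0.0029 over all genes tested. These comparisons share mice with each other, so their results are not independent.

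**Figure D1:**
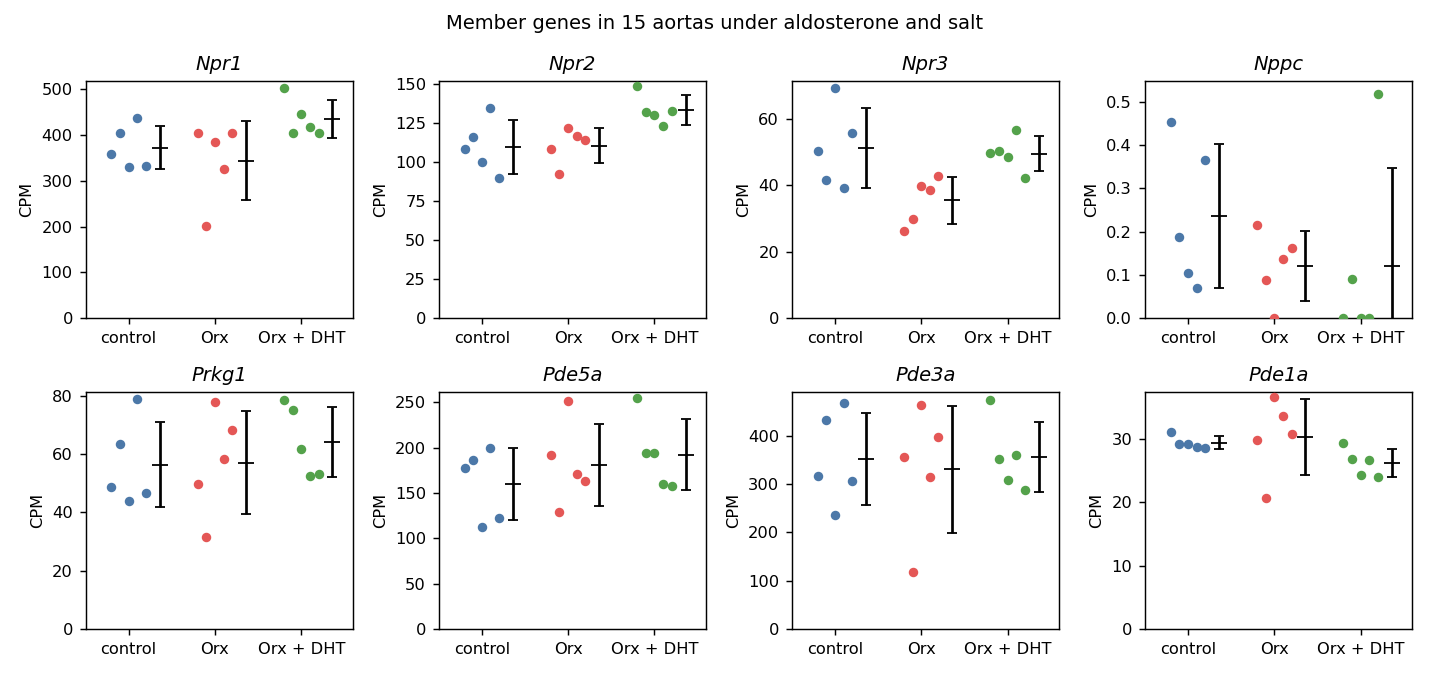
Level of each of the 8 genes in CPM (vertical axis, from 0) for each of 5 aortas per group, with the mean and SD of the group as a bar at the right of its points; Orx is orchiectomized. The Npr3 points of the orchiectomized group lie between 26.2 and 42.8 CPM against 39.3 to 69.2 CPM in controls, and Nppc stays under 1 CPM in every library.

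The levels of the 8 genes in control aortas differed widely. Per kilobase of merged exon, Npr1 had the highest control mean of the 8 genes at 77.98 ± 9.88 CPM per kb (SD, n = 5). Pde3a followed at 27.6 ± 7.54, Npr2 at 23.5 ± 3.67 and Pde5a at 16.2 ± 4.04 CPM per kb, and the mean ± SD ranges of neighbours overlapped from Pde3a to Pde5a. Npr3, Prkg1 and Pde1a lay close together at 5.46 ± 1.28, 5.198 ± 1.36 and 4.90 ± 0.165 CPM per kb. Nppc was last at 0.227 ± 0.160 CPM per kb. The strand used in counting was not given in the sources used here, and antisense or neighbouring transcripts overlap 11.7% of the exon bases of Npr1, 5.7% of Npr2, 3.42% of Npr3, 5.82% of Pde3a and 0.559% of Pde5a.

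Nppc, the C-type peptide that endothelial cells make as a local ligand, lies at chr1:86666291-86670571 on the minus strand (GRCm38, as are all positions here). Its read counts were 5, 2, 1, 1 and 4 in control replicates 1 to 5, 2, 1, 0, 2 and 2 in orchiectomized mice, and 0, 1, 0, 0 and 5 in orchiectomized + DHT mice. The groups overlapped, and the sums were 13, 7 and 6 reads. A fit over all 19989 genes with at least 1 read gave a log2 fold change of -0.95 ± 0.90 (SE) between orchiectomized and control mice (adjusted P = 0.657). The corresponding values were 0.08 ± 0.96 for DHT against no DHT in orchiectomized mice (adjusted P = 0.985) and -0.87 ± 0.93 for orchiectomized + DHT against control mice (adjusted P = 0.776). At this depth a difference in Nppc was not detectable.

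The 3 receptor genes include Npr3, the 1 gene of the 7 called, and the 250 bases before the RefSeq transcription start (GRCm38.p6) are shown for each, 5′ to 3′ on the strand of the gene. The hexamer AGAACA, or TGTTCT on the other strand, is the core of the DNA element that the androgen, glucocorticoid and mineralocorticoid receptors share, and its matches are in capitals. The Npr3 window (chr15:11907372-11907621, minus strand) holds 1 match, which starts at position -31 from the start site, and it opens with a run of gaa repeats. The Npr1 window (chr3:90465867-90466116, minus strand) and the Npr2 window (chr4:43631685-43631934, plus strand) hold 0 matches.
Npr3: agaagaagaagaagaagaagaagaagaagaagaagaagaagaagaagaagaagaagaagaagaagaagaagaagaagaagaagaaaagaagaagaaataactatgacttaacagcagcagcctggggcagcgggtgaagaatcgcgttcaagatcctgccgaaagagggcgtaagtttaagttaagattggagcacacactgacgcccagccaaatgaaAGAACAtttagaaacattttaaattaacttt
Npr1: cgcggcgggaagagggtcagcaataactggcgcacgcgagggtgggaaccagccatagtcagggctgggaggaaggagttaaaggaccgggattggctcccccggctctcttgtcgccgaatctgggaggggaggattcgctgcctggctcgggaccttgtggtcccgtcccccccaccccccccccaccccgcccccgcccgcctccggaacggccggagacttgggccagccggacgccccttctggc
Npr2: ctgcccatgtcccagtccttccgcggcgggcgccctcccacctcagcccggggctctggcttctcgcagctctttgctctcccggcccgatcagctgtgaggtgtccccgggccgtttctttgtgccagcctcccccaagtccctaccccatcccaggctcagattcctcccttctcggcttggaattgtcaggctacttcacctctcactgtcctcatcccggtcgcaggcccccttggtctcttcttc
The Npr3 window has a GC content of 38.8%, against 70.4% for Npr1 and 64.4% for Npr2. Of the 8 genes, 7 had at least 1 window in the RefSeq table, with 11 windows between them, and 3 of these windows held the hexamer, 1 of Npr3 and 2 of the 4 of Pde1a. Of all 32851 windows in the table, 16.1% held it. A match describes the letters and does not show binding.

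Npr1, which encodes the receptor for atrial and B-type peptide, lies at chr3:90450591-90465866 on the minus strand. In control replicates 1 to 5 its level was 359.5, 405, 331, 438 and 332 CPM. In orchiectomized mice it was 404, 202, 386, 325 and 404 CPM, and in orchiectomized + DHT mice 503, 404, 446, 418 and 405 CPM. The lowest of all was orchiectomized replicate 2, the library low in smooth muscle markers. Every orchiectomized + DHT library was above every orchiectomized library, with 404.4 and 404.3 CPM as the closest values. The means were 373 ± 47.2, 344 ± 85.9 and 435 ± 41.6 CPM (SD, n = 5 each). The log2 fold change was 0.34 with DHT against without it in orchiectomized mice (95% interval -0.014 to 0.69, adjusted P = 0.255) and -0.12 between orchiectomized and control mice (95% interval -0.47 to 0.24, adjusted P = 0.813). Neither passed the threshold. Without orchiectomized replicate 2 the 2 values were 0.21 (adjusted P = 0.314) and 0.012 (adjusted P = 0.985). Between orchiectomized + DHT and control mice the log2 fold change was 0.22 (adjusted P = 0.614).

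Npr2, which encodes the receptor for C-type peptide, lies at chr4:43631935-43651244 on the plus strand. Its level was 108, 116, 100.002, 135 and 89.5 CPM in control mice. In orchiectomized mice it was 108, 92.1, 122, 117 and 114 CPM, and with DHT 149, 132, 130.2, 123 and 133 CPM. Again all 5 libraries with DHT were above all 5 orchiectomized libraries without it, and they overlapped the controls through control replicate 4. The means were 109.7 ± 17.1, 110.5 ± 11.4 and 133 ± 9.47 CPM (SD, n = 5 each). The log2 fold change was 0.01 between orchiectomized and control mice (95% interval -0.22 to 0.25, adjusted P = 0.979). With DHT against without it the log2 fold change was 0.27 (95% interval 0.036 to 0.51, adjusted P = 0.170), and against control mice 0.28 (95% interval 0.047 to 0.52, adjusted P = 0.357). These did not reach the threshold of 0.01. The second value passed it under DESeq2 (0.30, adjusted P = 0.0727) and the third without control replicate 4 (0.37, adjusted P = 0.206). Npr1 and Npr2 were the 2 of 7 genes whose groups did not overlap between orchiectomized + DHT and orchiectomized mice, and 6.43% of all genes tested had groups that did not overlap there. In the other comparisons the count was 0 of 7, beside 1.51% of all genes for orchiectomized against control mice and 3.58% for orchiectomized + DHT against control mice.

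Npr3, which encodes the clearance receptor, lies at chr15:11839896-11907287 on the minus strand. Control replicates 1 to 5 had 50.3, 41.7, 69.2, 39.3 and 55.9 CPM. Orchiectomized mice had 26.2, 29.9, 39.8, 38.6 and 42.8 CPM, and orchiectomized + DHT mice 49.8, 50.4, 48.6, 56.8 and 42.3 CPM. Orchiectomized replicates 1 and 2 were the lowest of all 15 libraries, and the other 3 orchiectomized libraries lay near the lowest controls. The means were 51.3 ± 12.0, 35.5 ± 7.07 and 49.6 ± 5.16 CPM (SD, n = 5 each). After orchiectomy Npr3 fell 1.44-fold, a log2 fold change of -0.53 ± 0.16 (SE) with a 95% interval of -0.88 to -0.18 (adjusted P = 0.288). With DHT against without it the log2 fold change was 0.48 ± 0.16 (95% interval 0.13 to 0.83), and its P value lay just above the threshold (adjusted P = 0.103). Between orchiectomized + DHT and control mice it was -0.05 (95% interval -0.39 to 0.30, adjusted P = 0.928).

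The call for Npr3 depended on single libraries, and was also lost with only the 2 groups fitted and in other settings given in the closing section. It was lost without control replicate 3 (log2 fold change -0.43, adjusted P = 0.553), control replicate 5 (-0.50, adjusted P = 0.423), orchiectomized replicate 1 (-0.46, adjusted P = 0.324) or orchiectomized replicate 2 (-0.48, adjusted P = 0.613), and it held in the other 11 fits that left out 1 library. The difference with DHT passed the threshold under DESeq2 (0.51, adjusted P = 0.0446). It also passed without control replicate 2, 3 or 4, orchiectomized replicate 3, 4 or 5, or orchiectomized + DHT replicate 5, with log2 fold changes of 0.48 to 0.56 and adjusted P values of 0.0704 to 0.132.

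**Figure D2:**
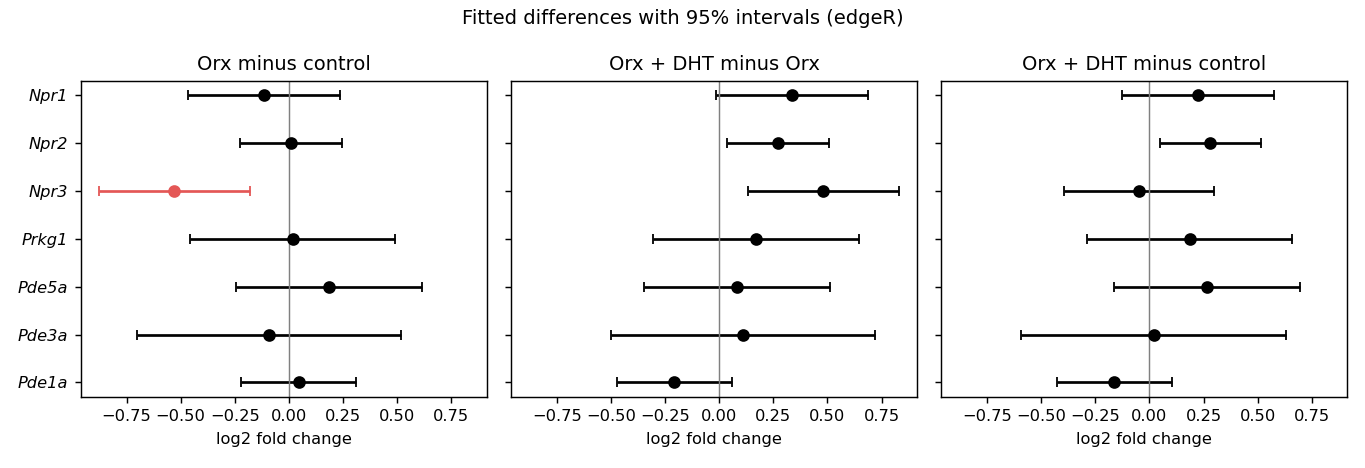
Log2 fold change of each of the 7 tested genes (horizontal axis, log2 scale) with its 95% interval from edgeR, in 1 panel per comparison, 5 aortas per group; red marks an unadjusted P value under 0.01. The only red point is Npr3 in orchiectomized against control mice, at -0.53, and its interval with DHT against without it, 0.13 to 0.83, lies above 0.

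The balance of the receptors was also described by the share of Npr3 in the summed CPM of the 3 receptor genes. It ranged from 4.86% in orchiectomized replicate 1 to 13.9% in control replicate 3. On the log2 scale the ratio of Npr3 to Npr1 plus Npr2 was -3.24 ± 0.50 in control, -3.66 ± 0.37 in orchiectomized and -3.51 ± 0.19 in orchiectomized + DHT mice (SD, n = 5 each). The differences of -0.41, 0.15 and -0.27 between the group means were each smaller than the larger SD of the 2 groups compared. Their size changed when single libraries were left out. The first was -0.57 when control replicate 4 was left out and -0.26 when control replicate 3 was, and the third was -0.42 and -0.11 with the same libraries left out. The second lay between -0.0055, when orchiectomized replicate 1 was left out, and 0.24, when orchiectomized replicate 2 was. No test was run on the ratio.

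Markers of fat and of other cell types varied beside Npr3. The 7 adipocyte markers summed to 2373 to 6017 CPM in control, 2647 to 4644 CPM in orchiectomized and 2617 to 5126 CPM in orchiectomized + DHT libraries. Their median log2 fold change was -0.45 between orchiectomized and control mice, with 1 of 7 called lower, and 0.43 with DHT against without it, with 0 of 7 called. For the 6 brown fat markers the medians were -0.82 (1 of 6 called lower) and 0.66 (0 of 6 called), and their sums ranged over 1106 to 4632, 1081 to 2171 and 1564 to 4458 CPM. Over the 15 libraries Npr3 had a Pearson r of 0.60 and a Spearman rho of 0.65 with the adipocyte level and 0.61 and 0.61 with the brown fat level. Without the 2 libraries farthest from the median of each level r was 0.79 and 0.41, and with the group means removed it was 0.47 and 0.44. The 6 skeletal muscle markers summed to 32.9 to 507 CPM in control, 8.46 to 188 CPM in orchiectomized and 71.98 to 410.2 CPM in orchiectomized + DHT libraries. After orchiectomy 2 of 6 were called lower (median log2 fold change -2.27), and with DHT against without it 3 of 6 were called higher (median 2.94). Npr3 had r = 0.37 with their level (rho 0.33), and 0.32 without the 2 farthest libraries. T cell and B cell markers went the other way, with 4 of 4 and 5 of 5 tested markers called higher after orchiectomy and lower with DHT against without it. Npr3 had r = -0.40 (rho -0.29) and -0.42 (rho -0.23) with their levels, or -0.13 and -0.062 without the 2 farthest libraries. With the group means removed r turned sign, to 0.33 for the T cell, 0.25 for the B cell and -0.15 for the skeletal muscle level. The part of these cell types in the Npr3 difference was not tested.

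Prkg1, which encodes the cyclic GMP-dependent kinase of smooth muscle, lies at chr19:30564489-31765033 on the minus strand. Its level ran from 44.1 to 79.1 CPM in control mice with a median of 48.7, from 31.5 to 77.8 CPM in orchiectomized mice with a median of 58.2, and from 52.5 to 78.5 CPM with DHT with a median of 61.8. The groups overlapped in all comparisons. The log2 fold changes were 0.02, 0.17 and 0.19 in the 3 comparisons (adjusted P = 0.985, 0.713 and 0.767), and the 95% interval between orchiectomized and control mice, -0.46 to 0.49, leaves room for a change of either sign. The value of 0.17 with DHT against without it was 0.03 without orchiectomized replicate 2 and 0.33 without orchiectomized replicate 3.

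Pde5a, the cyclic GMP-specific phosphodiesterase and the target of sildenafil, lies at chr3:122728947-122859374 on the plus strand. It ran from 112 to 199.6 CPM in control mice with a median of 177, from 129 to 252 CPM in orchiectomized mice with a median of 172, and from 157 to 255 CPM with DHT with a median of 194. The groups overlapped. The log2 fold changes were 0.18, 0.08 and 0.27 (adjusted P = 0.746, 0.861 and 0.622), and the first was 0.0087 without orchiectomized replicate 3.

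Pde3a, the cyclic GMP-inhibited phosphodiesterase, lies at chr6:141249269-141507448 on the plus strand. It ran from 235 to 468 CPM in control mice with a median of 317, from 118 to 464 CPM in orchiectomized mice with a median of 356, and from 288 to 473 CPM with DHT with a median of 351. The lowest value again belonged to orchiectomized replicate 2, and the other 4 orchiectomized libraries lay between 314 and 464 CPM. The log2 fold changes were -0.09, 0.11 and 0.02 (adjusted P = 0.925, 0.872 and 0.987). The first had a 95% interval of -0.70 to 0.52, the widest of the 7 genes.

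Pde1a, the calcium- and calmodulin-dependent phosphodiesterase, lies at chr2:79834453-80129458 on the minus strand. Its level was 31.2, 29.3, 29.3, 28.8 and 28.7 CPM in control mice, the tightest group of any of the 7 genes (coefficient of variation 3.38%). In orchiectomized mice it was 29.8, 20.7, 36.7, 33.8 and 30.8 CPM, and with DHT 29.4, 26.8, 24.4, 26.8 and 23.99 CPM. Orchiectomized replicate 2 was below every other library, while the other 4 of its group were above every library with DHT. The log2 fold change with DHT against without it was -0.21 (95% interval -0.47 to 0.057, adjusted P = 0.356). Without orchiectomized replicate 2 it was -0.31 (adjusted P = 0.0938), past the threshold. The other comparisons gave 0.04 (adjusted P = 0.913) and -0.16 (adjusted P = 0.625).

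Most of these genes varied over the libraries with the level of smooth muscle markers. The 7 markers (Myh11, Acta2, Tagln, Cnn1, Lmod1, Smtn and Myocd) summed to 14106 to 20291 CPM in control, 10345 to 20528 CPM in orchiectomized and 19720 to 24548 CPM in orchiectomized + DHT libraries. Their median log2 fold change was -0.079, 0.44 and 0.39 in the 3 comparisons, with 0 of 7 called in each. Over the 15 libraries the mean log2 CPM of the markers had a Pearson r of 0.97 with Npr1 (Spearman rho 0.93), 0.85 with Pde3a (0.63), 0.80 with Prkg1 (0.66), 0.80 with Npr2 (0.72) and 0.68 with Pde5a (0.67). For Pde1a r was 0.28 (rho -0.093) and for Npr3 0.22 (rho 0.13). With the group means removed these were 0.69 and -0.11, and for the genes named before them 0.73 to 0.97. Without the 2 libraries farthest from the median of the marker level, r was 0.94 for Npr1, 0.60 for Pde3a, 0.57 for Prkg1, 0.70 for Npr2, 0.59 for Pde5a, -0.44 for Pde1a and -0.081 for Npr3. The endothelial level ran the other way, with r = -0.90 for Npr1 (rho -0.77), -0.86 for Prkg1 (-0.78), -0.85 for Pde5a (-0.88), -0.84 for Pde3a (-0.62) and -0.81 for Npr2 (-0.73), and -0.81, -0.68, -0.82, -0.55 and -0.73 without the 2 libraries farthest from its median. Of the 7 endothelial markers 2 were called lower with DHT against without it. The mesothelial level, whose markers were called lower in 6 of 6 there, had r = -0.71 with Npr1 (rho -0.74) and -0.69 with Npr2 (-0.71), and -0.55 and -0.58 without its 2 farthest libraries. The adipocyte level had r = -0.20 with Npr1, -0.48 with Prkg1, -0.72 with Pde5a, -0.34 with Pde3a and -0.46 with Npr2. Without its 2 farthest libraries these were -0.023, -0.27, -0.53, -0.11 and -0.31. Without orchiectomized replicate 2 alone they were -0.64, -0.81, -0.86, -0.87 and -0.62. The smooth muscle level then had 0.95, 0.64, 0.68, 0.61 and 0.77 with the same genes. The libraries share groups and a common total of reads, so these values are a description with no test. The part of the smooth muscle, endothelial, mesothelial and adipocyte levels in the values of Npr1 and Npr2 with DHT was not tested.

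**Figure D3:**
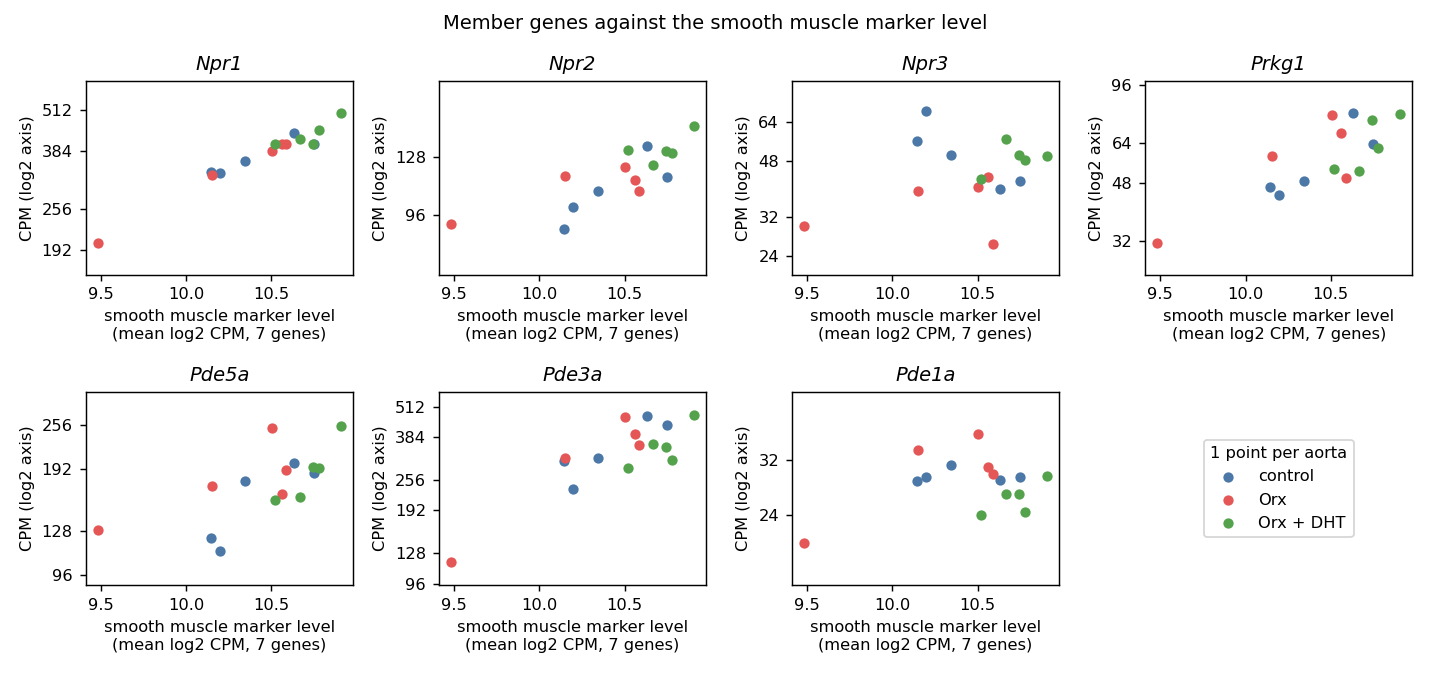
Level of each of the 7 tested genes (vertical axis, CPM on a log2 scale) against the smooth muscle marker level (horizontal axis, mean log2 CPM of 7 markers), 1 point per aorta, coloured by group; Orx is orchiectomized. Npr1 follows the marker level closely (r = 0.97), Npr3 does not (r = 0.22), and the orchiectomized aorta at the far left is replicate 2.

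The genes whose profile over the 15 libraries was most like each member were found by Pearson r in log2 CPM, as a description with no test. For Npr1 they were Emc8 (r = 0.98), Fblim1 (0.98) and Cald1 (0.96), for Pde3a Pcdh7 (0.99), Itga8 (0.99) and Thsd4 (0.98), and for Prkg1 Tmtc1, Cacna2d1 and Dcbld2 (0.96 each). Npr2 was most like Tns2 (0.95), Slc4a3 (0.94) and Arhgef25 (0.93), and Pde5a most like Mef2c, Ltbp4 (0.92 each) and Ctdsp2 (0.91). Npr3 was most like Pank3 (0.90), Lss (0.88) and Tgfbrap1 (0.87). Lss encodes lanosterol synthase of the cholesterol pathway and Pank3 a pantothenate kinase of coenzyme A synthesis. Pde1a was most like Manea (0.95), Cpsf2 (0.90) and Nr3c1 (0.89), the last encoding the glucocorticoid receptor. Among the members themselves the highest r were 0.88 for Prkg1 with Pde3a and 0.88 for Npr1 with Pde3a, the latter 0.63 without orchiectomized replicate 2, and r of Npr3 with the 6 others lay between -0.26 and 0.26, and between -0.49 and -0.17 without that library.

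Of 65 other genes of the pathway, 47 passed the filter. Between orchiectomized and control mice 2 were called higher, Nppb and Pde1b, and 0 lower. With DHT against without it 1 was higher, Hspb6, and 3 were lower, Pde1b, Lrmp and Pde4b. Between orchiectomized + DHT and control mice Hspb6 was higher and Nos3, Ide and Pcsk6 were lower. These shares, 4.26%, 8.51% and 8.51% of the tested genes, stand beside 3.22%, 9.72% and 3.53% of all genes. The median log2 fold change of the 47 genes was -0.014, -0.056 and 0.020.

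The circulating ligands Nppa and Nppb, made by heart muscle, varied widely between libraries. Nppa had 61, 13, 18, 20 and 477 reads in control mice, 1, 15486, 11, 106 and 833 in orchiectomized mice, and 568, 3512, 88, 208 and 612 with DHT. Nppb had 1, 0, 1, 3 and 3 reads in control mice, 0, 447, 1, 0 and 37 in orchiectomized mice, and 33, 92, 2, 3 and 9 with DHT. Most reads of the orchiectomized group came from replicate 2, the library with the most cardiac marker RNA, and 3 of the 5 libraries of the group had 0 or 1 reads of Nppb. The fit called Nppb higher in orchiectomized than in control mice (log2 fold change 5.82, 95% interval 1.94 to 9.69, adjusted P = 0.291). Without orchiectomized replicate 2 it was 2.38 (adjusted P = 0.725), and without any 1 of the controls it was 5.53 to 6.16 and also not called. Between orchiectomized + DHT and control mice the log2 fold change of Nppb was 4.10 (adjusted P = 0.391), and 4.11 without orchiectomized replicate 2 (adjusted P = 0.199), which passed the threshold. Nppa did not pass between orchiectomized and control mice (4.76, adjusted P = 0.354). Without orchiectomized replicate 2 its log2 fold change was 0.84 (adjusted P = 0.898), and without control replicate 5 it was 6.85 (adjusted P = 0.390), the 1 of 15 such fits that passed the threshold. The 7 cardiac markers summed to 142 to 1425 CPM in control, 91.5 to 5844 CPM in orchiectomized and 227 to 939 CPM in orchiectomized + DHT libraries. Over the 15 libraries the level of the 6 tested ones had r = 0.86 (rho 0.85) with Nppa and r = 0.70 (rho 0.71) with Nppb. Without the 2 libraries farthest from the median of that level, r was 0.81 and 0.56, and without orchiectomized replicate 2 alone it was 0.79 and 0.44. Control replicate 5, second in cardiac marker RNA, had 3 reads of Nppb. The enzymes that process or degrade the peptides included 2 genes that fell between control and orchiectomized + DHT mice. Ide, the insulin-degrading enzyme that also cleaves atrial peptide, fell by 0.61 on the log2 scale (SE 0.16, adjusted P = 0.174), and Pcsk6, the convertase that activates corin, fell by 0.67 (SE 0.20, adjusted P = 0.233). The Pcsk6 call was lost without control replicate 1, 3 or 5 or orchiectomized + DHT replicate 1, 2, 3 or 5 (-0.67 to -0.58), and the Ide call held in each fit that left out 1 library. In the same comparison 5 of 6 mesothelial and 2 of 7 fibroblast markers were called lower. Over the 15 libraries Pcsk6 had r = 0.53 with the fibroblast (rho 0.48) and 0.43 with the mesothelial level (0.43), and Ide 0.44 (0.20) and 0.39 (0.34). Without the 2 libraries farthest from the median of each level these were 0.53 and 0.69 for Pcsk6 and -0.18 and 0.58 for Ide. With the group means removed they were 0.15 and -0.21 for Pcsk6 and 0.16 and -0.0089 for Ide. The part of these cell types in the Ide and Pcsk6 values was not tested.

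On the nitric oxide arm, Nos3, the nitric oxide synthase of endothelium, was lower in orchiectomized + DHT than in control mice. Its level was 45.5, 50.01, 60.8, 56.4 and 63.6 CPM in control mice, 42.4, 41.6, 42.8, 52.0 and 43.5 CPM in orchiectomized mice, and 30.4, 44.5, 30.0, 38.5 and 29.1 CPM with DHT. All 5 libraries with DHT were below all 5 controls. Against control mice Nos3 fell with orchiectomy and DHT by 0.68 on the log2 scale (SE 0.13, 95% interval -0.96 to -0.40, adjusted P = 0.0464), and this call held in each fit that left out 1 library. The steps between the groups did not pass: -0.31 for orchiectomized against control (adjusted P = 0.375) and -0.37 with DHT against without it (adjusted P = 0.118). Markers of several cell types were also lower in that comparison. The 7 endothelial markers summed to 769 to 1149 CPM in control, 842 to 1352 CPM in orchiectomized and 648 to 853 CPM in orchiectomized + DHT libraries, with a median log2 fold change of -0.21 and 2 of 7 called lower between orchiectomized + DHT and control mice. Of the mesothelial markers 5 of 6 were called lower there, of the fibroblast markers 2 of 7 (2835 to 4221, 2991 to 4393 and 1980 to 3189 CPM in sum) and of the macrophage markers 0 of 6. Over the 15 libraries Nos3 had r = 0.68 with the fibroblast level (rho 0.60), 0.62 with the macrophage (0.57), 0.62 with the mesothelial (0.53) and 0.42 with the endothelial level (0.34), and 0.61, 0.62, 0.69 and 0.51 without the 2 libraries farthest from the median of each. With the group means removed these values were 0.44, 0.59, 0.17 and 0.26. The part of these cell types in the Nos3 value was not tested. The soluble cyclase genes were not called: Gucy1a1 had 184 ± 43.1, 189.8 ± 55.8 and 257 ± 52.3 CPM (adjusted P = 0.259 with DHT against without it), and Gucy1b1 had 173 ± 49.6, 179 ± 53.9 and 187 ± 46.0 CPM.

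Among kinase genes and targets, Hspb6, a small heat shock protein phosphorylated by cyclic nucleotide-dependent kinases in smooth muscle, had 120.2 ± 13.8, 124 ± 26.7 and 169 ± 22.9 CPM (SD, n = 5 each). It rose by 0.45 on the log2 scale with DHT against without it (SE 0.15, adjusted P = 0.0903) and by 0.50 against control mice (SE 0.15, adjusted P = 0.221), where all 5 libraries with DHT were above all 5 controls. Smooth muscle markers had a median log2 fold change of 0.44 and 0.39 in these comparisons, with 0 of 7 called, and skeletal muscle markers 2.94 (3 of 6 called higher) and 0.63 (0 of 6 called). Over the 15 libraries Hspb6 had r = 0.41 with the smooth muscle level (rho 0.63), -0.68 with the fibroblast (-0.71), -0.68 with the macrophage (-0.65), -0.60 with the mesothelial (-0.62) and 0.57 with the skeletal muscle level (0.50), and 0.66, -0.85, -0.73, -0.68 and 0.28 without the 2 libraries farthest from the median of each. With the group means removed these values were 0.056, -0.29, -0.47, 0.028 and 0.47. The part of these cell types in the Hspb6 values was not tested. The call with DHT against without it was lost without orchiectomized replicate 4 or orchiectomized + DHT replicate 1, 2 or 3 (0.41 to 0.44), and the call against control mice without control replicate 4 or 5 or orchiectomized + DHT replicate 1 or 3 (0.42 to 0.48). Mrvi1, which encodes the kinase substrate IRAG that restrains calcium release, had 427 ± 100.2, 408 ± 142 and 540.3 ± 84.7 CPM and was not called. Its relative Lrmp (IRAG2), known from lymphoid cells, had 4.40 ± 1.47, 7.88 ± 3.94 and 2.94 ± 0.646 CPM. Lrmp fell by 1.42 on the log2 scale with DHT against without it (SE 0.36, adjusted P = 0.0359). Prkg2 stayed under 4 CPM in group mean and was not called.

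Among the other phosphodiesterases, Pde1b, a calmodulin-dependent relative of Pde1a, had 7.43, 6.93, 6.88, 7.79 and 8.49 CPM in control mice, 8.61, 11.6, 11.6, 10.999 and 7.57 CPM in orchiectomized mice, and 6.67, 6.31, 5.90, 6.79 and 6.62 CPM with DHT. All 5 libraries with DHT were below all others. It rose by 0.43 on the log2 scale after orchiectomy (SE 0.14, adjusted P = 0.308) and fell by 0.64 with DHT against without it (SE 0.14, adjusted P = 0.0233). The first call held only without control replicate 5 or orchiectomized replicate 1 or 5, and in the 12 other fits that left out 1 library it was lost (0.34 to 0.44). The second held in each of the 15. Pde4b, a cyclic AMP phosphodiesterase, fell by 0.31 with DHT against without it (SE 0.091, adjusted P = 0.0670), and was not called without orchiectomized replicate 1, 2 or 3 or orchiectomized + DHT replicate 3, 4 or 5 (-0.28 to -0.24). Pde3b, the relative of Pde3a known from fat cells, had 161 ± 54.3, 102 ± 31.1 and 102 ± 38.3 CPM and Pde2a, which cyclic GMP stimulates, 38.0 ± 15.7, 37.0 ± 8.29 and 39.9 ± 16.3 CPM, and neither was called. With 1 library left out, Pde3b lay between -0.88 and -0.55 on the log2 scale after orchiectomy. Against control mice it lay between -0.92 and -0.56 with DHT, and 2 of 15 fits passed the threshold in each comparison. Pde3b had r = 0.79 with the adipocyte (rho 0.69) and 0.80 with the brown fat level (0.76), and 0.81 and 0.72 without their 2 farthest libraries. The part of fat in the Pde3b values was not tested.

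Markers of several cell types moved beside Pde1b, Lrmp and Pde4b. The 6 B cell markers summed to 3.28 to 8.34 CPM in control, 6.35 to 156 CPM in orchiectomized and 2.65 to 10.98 CPM in orchiectomized + DHT libraries. Of the 5 tested, 5 were called higher after orchiectomy and 5 lower with DHT against without it. The 6 T cell markers summed to 2.90 to 8.03, 6.24 to 41.9 and 3.59 to 6.79 CPM. Of the 4 tested, 4 were called higher after orchiectomy and 4 lower with DHT against without it. Mesothelial markers summed to 34.5 to 96.2, 46.7 to 380.4 and 8.85 to 24.1 CPM, and macrophage markers to 245 to 652, 399.6 to 1171 and 221 to 436 CPM, with 6 of 6 and 3 of 6 called lower with DHT against without it and 0 called after orchiectomy. Fibroblast markers had 3 of 7 called lower with DHT against without it. Over the 15 libraries Pde1b had r = 0.89 with the T cell level (rho 0.66), 0.85 with the B cell (0.68), 0.77 with the mesothelial (0.83), 0.71 with the macrophage (0.67) and 0.69 with the fibroblast level (0.81). Lrmp had r = 0.86 with the T cell level (rho 0.67), 0.85 with the macrophage (0.91), 0.85 with the B cell (0.69), 0.70 with the mesothelial (0.63) and 0.67 with the fibroblast level (0.74). Without the 2 libraries farthest from the median of each level these values were 0.75, 0.72, 0.65, 0.79 and 0.75 for Pde1b and 0.68, 0.84, 0.68, 0.52 and 0.71 for Lrmp, in the same order. Pde4b had r = 0.76 with the mesothelial level (rho 0.75), 0.63 with the fibroblast (0.73), 0.52 with the macrophage (0.58), 0.50 with the T cell (0.29) and 0.50 with the B cell level (0.33), and 0.61, 0.52, 0.67, 0.086 and 0.16 without the 2 farthest libraries. With the group means removed the Pde4b values were 0.45, 0.23, 0.11, -0.016 and 0.057, in the same order. Those of Pde1b lay between 0.36 and 0.74 and those of Lrmp between 0.40 and 0.77. Orchiectomized replicate 2 had the highest sum of B cell, T cell, macrophage and mesothelial markers. When it was left out, Pde1b and Lrmp were still called lower with DHT, with a log2 fold change of -0.58 for Pde1b (adjusted P = 0.0516) and -1.15 for Lrmp (adjusted P = 0.0832). The part of these cell types in the values was not tested.

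**Figure D4:**
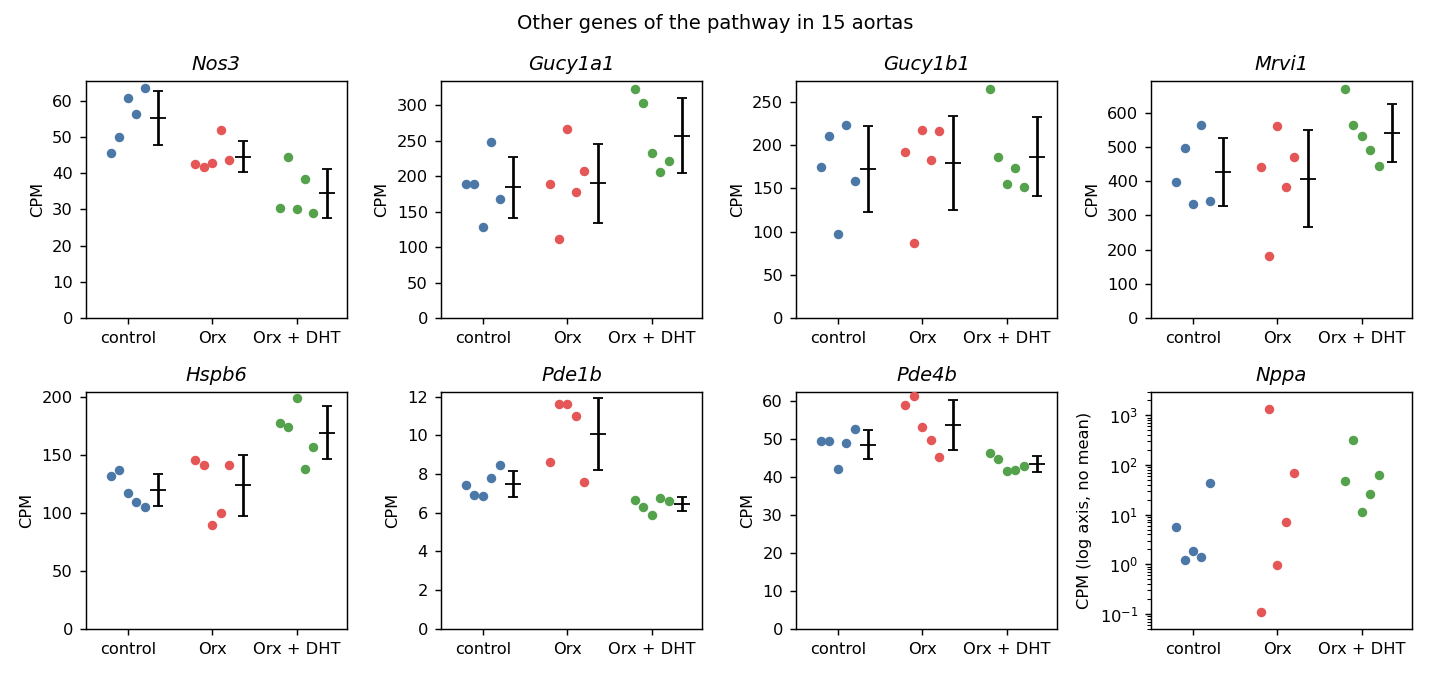
Level in CPM (vertical axis, from 0 except for Nppa, whose axis is logarithmic) of 8 other genes of the pathway in each of 5 aortas per group, with the group mean and SD as a bar at the right of the points, except for Nppa; Orx is orchiectomized. All 5 Nos3 points with DHT lie below the controls, all 5 Pde1b points with DHT lie below both other groups, and 1 orchiectomized aorta has by far the most Nppa.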

How the data were processed

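RNA-Seq libraries of poly(A) RNA from 15 whole aortas, 5 per group, were compared. Each library has 1 table of raw counts by gene symbol, deposited without normalization. The submitters' processing notes name STAR, Cufflinks, DESeq2 and the genome build mm10 without saying which step each served, and the counting program, annotation and strand setting were not given in the sources used here. Entries for reads assigned to no gene (6.26 to 14.4% of the reads in a library) or to several genes (1.34 to 1.97%) were left out. Reads on genes ranged from 8268957 to 13816864 per library, so 3 reads correspond to about 0.3 CPM and lower levels are imprecise. Intervals from replicates cover the spread between these aortas.

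The model was fitted with edgeR 4.0.16 (R 4.3.3), using filterByExpr (minimum count 10, minimum total 15), TMM scaling, and a quasi-likelihood fit of the 3 groups to all 15 libraries, without covariates. A call was an unadjusted P value under 0.01. Adjusted P values are Benjamini-Hochberg values over the 14121 genes tested. Log2 CPM values were computed with a prior count of 3. The smallest chi-square per degree of freedom between 2 libraries of a group was 11.9, so no library was counted as a repeat of another. Replicate numbers did not pair the libraries: 5 of 15 same-numbered pairs had a correlation of their deviations over 0.1 (range -0.47 to 0.46). The fit was first tested on simulated counts with known changes.

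The 8 genes, the list of 65 other pathway genes and the marker lists were chosen with earlier results of these data known. All 8 genes are named. Of the other pathway genes, up to 6 with the smallest P value under 0.01 in each comparison are named, and always Nppa, Nppb, Nos3, Gucy1a1, Gucy1b1, Mrvi1 (Irag1), Pde3b, Pde2a and Prkg2, together with the 3 genes of highest Pearson r with each member. Alternatives were other size factors, other filters, DESeq2 1.42.0, limma 3.58.1 (voom with quality weights), a robust fit, only the 2 groups compared, a replicate block, leaving out each library, and, chosen after seeing the marker levels, leaving out control replicate 5 and orchiectomized replicate 2 together. Gene positions came from the GENCODE annotation of GRCm38 and promoter windows from RefSeq (GRCm38.p6). Figures were drawn with matplotlib 3.10.9.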

Additional observations from a re-analysis of the deposited data

Results flagged for a closer look

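In 4 of 66 groups of 5 libraries examined, 1 library lay far from the other 4 in log2 CPM, with a gap to its nearest neighbour that exceeded 0.71 of the group's range (Dixon's critical value at 95%). All gaps below are on that log2 scale unless CPM is named. Chance alone marks about 5% of such groups. Orchiectomized replicate 2 was low for Pde3a, at 118 CPM against 314 to 464 CPM in the rest of its group (gap 0.715 of the log2 range, 0.567 in CPM), and for Gucy1b1, at 86.8 CPM against 182 to 218 CPM (gap 0.807). It is the library with the lowest smooth muscle marker level, and the part of that level was not tested. Control replicate 1 was high for Pde1a, at 31.2 CPM against 28.7 to 29.3 CPM (gap 0.729). Orchiectomized replicate 4 was high for Nos3, at 52.0 CPM against 41.6 to 43.5 CPM (gap 0.795). Without the log, a choice made after seeing the data, 9 groups exceeded the critical value: 3 of these 4 (Pde1a, Nos3 and Gucy1b1, but not Pde3a), the 3 groups of Nppa (gaps 0.830 to 0.951 in CPM), Nppb (0.924) and Prkg2 (0.785) in orchiectomized mice, and Pde3b with DHT (0.740).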

How the results depend on the processing

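The Npr3 call after orchiectomy was lost with only the 2 groups fitted, with voom, without both control 5 and orchiectomized 2, and at an adjusted P value under 0.05, where the number of the 7 genes called lower went from 1 to 0. In each of these settings the number of other pathway genes called higher after orchiectomy went from 2 to 0, as it did with the filter of 10 reads in every library and with the replicate block. It was 1 with RLE size factors and with all genes. With DHT against without it, 1 of the 7 genes was called higher with RLE size factors, all genes, 10 reads in every library or only the 2 groups, and 2 under DESeq2, against 0 in the report. In the same comparison 1 was called lower (Pde1a) with voom and without both libraries, voom called 1 other pathway gene lower instead of 3, and 0 were higher at an adjusted P value under 0.05. Between orchiectomized + DHT and control mice voom called 1 of the 7 genes higher (Npr2), and 2 other pathway genes higher and 7 lower. At an adjusted P value under 0.05 these were 0 and 1. The test for any difference called 1 of the 7 with RLE size factors, all genes, DESeq2 and voom. The robust fit left the counts of the 7 genes as in the report. The cause of these changes was not tested. Depth limits Nppc, with 0 to 5 reads per library.

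With 1 library left out, the 7 genes gave 0 to 1 lower calls after orchiectomy, 0 to 1 higher and 0 to 1 lower calls with DHT against without it, 0 to 1 higher calls for orchiectomized + DHT against control mice, and 0 to 2 calls for any difference. Other pathway genes gave 0 to 3 higher and 0 to 2 lower calls after orchiectomy, 0 to 3 higher calls with DHT against without it, and 0 to 2 higher and 2 to 7 lower calls against control mice. The replicate block (correlations of same-numbered libraries given above, 3 of 15 libraries closest to their own number) left the Npr3 call in place (log2 fold change -0.53, adjusted P = 0.482).

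Log2 fold changes that turned sign were not called in either fit. For orchiectomized against control mice they were Npr2 (-0.013 with DESeq2, -0.012 with RLE size factors, -0.034 with all genes, -0.013 with only the 2 groups, -0.0084 without both libraries), Prkg1 (-0.0042, -0.0044, -0.023 and -0.0041 in the first 4 of these), Hspb6 (-0.0073 with all genes, -0.071 without both), Gucy1a1 (-0.00050 with all genes), Pde3a (0.063 without both, 0.10 with voom), Mrvi1 (0.036 without both, 0.11 with voom), Prkg2 (-0.053 without both), and with voom Npr1 (0.042), Pde4b (-0.0021) and Pde2a (0.026). With DHT against without it they were Pde3b (0.024 with DESeq2, 0.023 with RLE size factors, 0.030 with all genes, 0.012 with 10 reads in every library, 0.014 with only the 2 groups), Pde5a (-0.0035 without both), Pde3a (-0.090 without both, -0.069 with voom), Nppb (1.72 without both, 1.75 with voom), Nppa (2.30 without both, 2.09 with voom, 1.05 with the replicate block), Gucy1b1 (-0.10 without both, -0.14 with voom) and Pde2a (-0.041 with voom). Against control mice they were Pde3a (-0.027 without both) and Pde2a (-0.015 with voom).

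With 1 library left out, values that crossed 0 after orchiectomy ranged from -0.20 to 0.012 for Npr1, -0.055 to 0.095 for Npr2, -0.14 to 0.17 for Prkg1, -0.27 to 0.11 for Pde3a, -0.056 to 0.14 for Pde1a, -0.051 to 0.11 for Hspb6, -0.14 to 0.17 for Gucy1a1, -0.12 to 0.21 for Gucy1b1, -0.23 to 0.11 for Mrvi1 and -0.20 to 0.17 for Pde2a. With DHT against without it they ranged from -0.038 to 0.26 for Pde5a, -0.090 to 0.29 for Pde3a, -2.89 to 1.72 for Nppb, -2.95 to 2.30 for Nppa, -0.10 to 0.16 for Gucy1b1, -0.24 to 0.23 for Pde3b, -0.054 to 0.29 for Pde2a and -0.014 to 0.61 for Prkg2. Against control mice they ranged from -0.13 to 0.075 for Npr3, -0.11 to 0.14 for Pde3a, -0.048 to 0.22 for Gucy1b1 and -0.11 to 0.30 for Pde2a.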
